A study of Arabidopsis thaliana with 10 samples.

Results

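Dexamethasone was compared with its solvent DMSO after 4 h in whole seedlings of Arabidopsis thaliana that lack both GLK genes. The comparison rests on 4 of the 10 Affymetrix ATH1 arrays of the series, taken as the arrays whose titles give 4 h and either induction or control: 2 control arrays and 2 dexamethasone arrays. An ATH1 array reports 1 signal per probe set, a group of short oligonucleotides that match a transcript. All groups had the Col-0 background and carried transposon knock-outs of Atglk1 and Atglk2, so the controls are double mutants too. Plates and liquid medium held 20 ug/ml hygromycin B. Seedlings spent 10 days on the plates under 16 h light and 8 h dark, then 48 h in the liquid, in flasks of about 100 seedlings. Each sample is therefore RNA of pooled seedlings. The remaining arrays are 2 controls at 0 h, and 2 controls and 2 dexamethasone samples at 24 h. The dose of dexamethasone is not given in the sources used here, and the labels name neither a transgene nor the promoter or cell type that would drive one. By its title, the study asked which genes lie downstream of AtGLK1. Whether replicates were separate cultures is not stated, and the p-values then cover only the variation among these arrays, which could be technical.

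GLK proteins are transcription factors of the GARP family that switch on nuclear genes for chloroplast development, among them genes of chlorophyll synthesis and of the light-harvesting antenna. The antenna proteins bind chlorophyll and pass light energy to photosystems I and II, and plants without GLK function are pale green. Dexamethasone is a synthetic steroid whose animal receptor plants lack, and it is used to activate engineered proteins fused to an animal steroid-binding domain. Chloroplasts also carry their own genome, which encodes core subunits of the photosystems, the cytochrome b6f complex, the ATP synthase and the NDH complex, and these genes are not direct targets of a nuclear transcription factor.

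Signals were on the arbitrary scale of MAS5, and the trimmed mean was 100.0 on every array. Median signals ran from 33.9 to 35.9. Changes are differences of log2(signal + 4.35), which understates the change of weak probe sets. Probe sets had to exceed percentile 40 of an array on 2 or more arrays, and the 14575 that did were tested with limma across all 10 arrays, with Benjamini-Hochberg adjustment and a threshold of 0.05. In the text, "lay above" or "lay below" describes signals, while "rose" and "fell" are kept for what passed that threshold. Markers of both main organ types were present on the 4 arrays: the green tissue markers LHCB4.1, LHCB4.2, LHCB4.3, RCA, rbcL and psbA, and the root markers PYK10, EXPA7 and EXPA18. The summed signal of the 3 root markers was 3563 and 4274 on the controls and 3510 and 4055 with dexamethasone. In RNA of whole seedlings, fewer cells of a type and less RNA per cell cannot be told apart.

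Dexamethasone replicate 2 stood apart from the other 3 arrays at 4 h. Its log2 signals correlated with the controls at 0.966 and 0.97, whereas replicate 1 correlated with the same controls at 0.986 and 0.985, as closely as the controls did with each other (0.985). These correlations are over probe sets of arrays that share most of their expressed genes, and are given as a description. The log2 signals of 114 probe sets (0.782% of those tested) lay more than 1 unit above all other 4 h arrays on replicate 2, and 46 (0.316%) lay more than 1 unit below. The same counts were 2 (0.0137%) and 2 (0.0137%) for replicate 1, 1 (0.00686%) and 8 (0.0549%) for control replicate 1, and 1 (0.00686%) and 11 (0.0755%) for control replicate 2. Each dexamethasone array is therefore described on its own beside the comparison of groups.

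**Figure D1:**
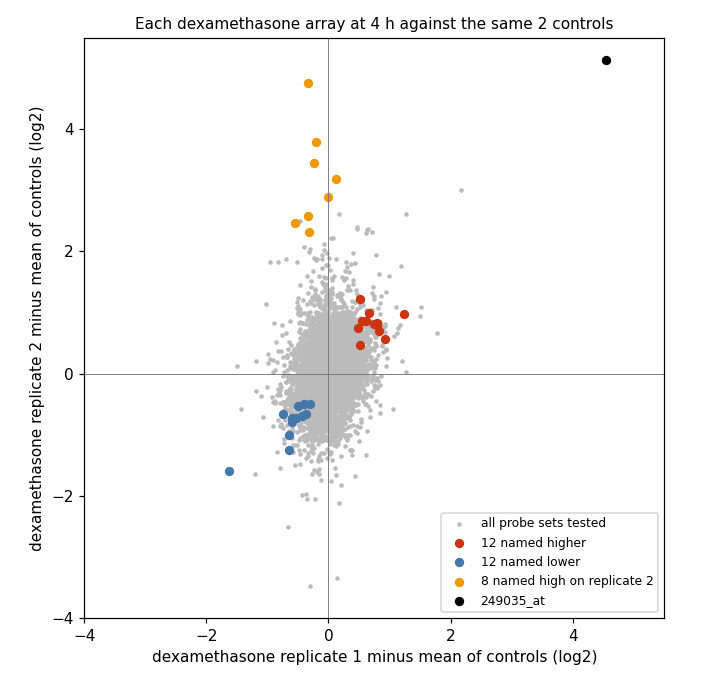
Each of the 14575 probe sets is a point, placed by the log2 signal of dexamethasone replicate 1 (x axis) and of replicate 2 (y axis) minus the mean of the same 2 controls, with the named sets in colour. The cloud is wider along the y axis (SD 0.39) than along the x axis (SD 0.24), and since both axes subtract the same controls they are not independent of each other.

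At 4 h 1 probe set rose with dexamethasone (0.00686% of 14575) and 0 fell in limma's test. At an unadjusted p below 0.05 the counts were 545 higher (3.74%) and 477 lower (3.27%), or 7.01% in either direction. The probe set that rose is 249035_at, which the annotation used here does not assign to a gene. Whether it measures a GLK gene, an introduced construct or another transcript cannot be told here. Its signal was 7.33 and 9.23 on the controls, below percentile 40 of those arrays, and 290 and 438 on dexamethasone replicates 1 and 2. Both dexamethasone signals stood far above both controls, and the log2 change was 4.84 (SE 0.27, limma adjusted p = 1.9e-05). On the separate arrays at 24 h the signal was 15.3 and 9.07 on the controls and 433 and 302 with dexamethasone, a log2 change of 4.50. The difference between the times was smaller than its error (-0.35, SE 0.38, limma adjusted p = 0.901). The probe set also passed without dexamethasone replicate 1 and without replicate 2.

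A second probe set, 263345_s_at, did not pass with all arrays but passed when either dexamethasone array was left out. This probe set likewise has no gene in the annotation, and it is named, after its values were seen, because 2 probe sets in all passed without replicate 2. Its signal was 950 and 1158 on the controls and 2971 and 2016 on the dexamethasone arrays, with no overlap between the groups. The log2 change was 1.22 (SE 0.17, limma adjusted p = 0.113), and it was 0.94 without replicate 1 (limma adjusted p = 0.0303) and 1.50 without replicate 2 (limma adjusted p = 0.006). Over all alternatives the limma adjusted p ran from 0.006 to 0.962, and 2 of 16 passed. At 24 h the controls had reached 4352 and 4015, and the dexamethasone arrays 5695 and 5271. Probe set 266273_at, chosen after its values were seen for the second-largest log2 change at 4 h, was near the bottom of the scale on the controls, at 0.567 and 0.594. It read 17.8 and 35.1 with dexamethasone, a log2 change of 2.59 (limma adjusted p = 0.303). The 24 h value was 2.66. At 4 h the log2 change was 2.17 on dexamethasone replicate 1 and 3.00 on replicate 2.

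On 2404 probe sets (16.5%) both dexamethasone arrays lay above both controls at 4 h, and on 2679 (18.4%) both lay below. With a margin of more than 0.5 log2 units between the groups, 52 (0.357%) and 28 (0.192%) were left. Only 6 probe sets lay more than 1 log2 unit above the control mean on both dexamethasone arrays, and 2 lay more than 1 unit below on both. Named genes come from the probe sets that the annotation assigns to 1 gene. The 12 with the smallest p among those higher on both dexamethasone arrays had log2 changes from 0.50 to 1.10 and limma adjusted p-values from 0.171 to 0.574, so none of them passed. These 12 are given for their values, since being separated from the controls is how they were chosen.

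**Figure D2:**
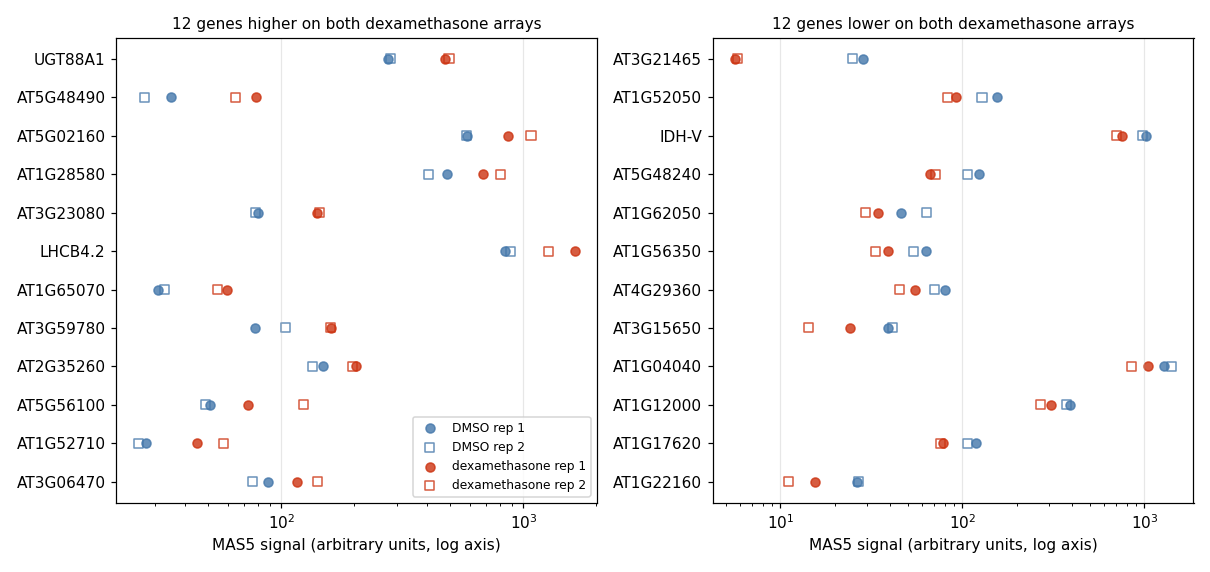
MAS5 signal (log axis) of the 12 named genes that lay higher and the 12 that lay lower with dexamethasone at 4 h, 1 mark per array: 2 controls and 2 dexamethasone arrays. By the way they were chosen, the dexamethasone marks of each gene lie on 1 side of both controls. UGT88A1 read 277 and 282 on the controls and 473 and 493 with dexamethasone.

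LHCB4.2 is the member of this set that belongs to the light-harvesting antenna. It encodes a minor antenna protein of photosystem II (CP29), which links the outer antenna to the reaction centre core. Its signal was 837 and 888 on the controls and 1634 and 1273 on dexamethasone replicates 1 and 2. The group means were 862 ± 36 (SD, n = 2) and 1453 ± 255 (SD, n = 2), and the larger value was on replicate 1, the array without the separate signal of replicate 2. The log2 change was 0.74 (SE 0.15, limma adjusted p = 0.396). At 24 h the values were 1655 and 1994 on the controls and 2735 and 2188 with dexamethasone, again without overlap, and the log2 change was 0.43.

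UGT88A1, a UDP-glycosyltransferase, had the smallest p among the single-gene probe sets. Enzymes of this family attach sugars to small molecules such as hormones and secondary metabolites. The signal was 277 and 282 on the controls and 473 and 493 with dexamethasone, and within each group the arrays were close to each other. The log2 change was 0.78 (SE 0.12, limma adjusted p = 0.171). At 24 h the controls read 310 and 302 and the dexamethasone arrays 477 and 386 (log2 change 0.49). At 4 h the log2 change was 0.75 on dexamethasone replicate 1 and 0.81 on replicate 2.

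The other 10 genes of the set are given by locus, because the annotation used here names no function for them. AT5G48490 had the largest change of the 12, from 34.9 and 27.3 to 78.6 and 64.5 (log2 change 1.10, SE 0.18, limma adjusted p = 0.272). AT5G02160 lay at 587 and 585 on the controls and at 862 and 1076 with dexamethasone. AT1G28580 went from 485 and 407 to 682 and 808. On replicates 1 and 2 the log2 changes were 0.55 and 0.87 for AT5G02160, and 0.61 and 0.86 for AT1G28580. The size of both changes therefore depends on which array stands for the treatment. AT5G56100 read 50.6 and 48.7 on the controls and 72.5 and 123 with dexamethasone. Its replicate 2 value was well above its replicate 1 value, with log2 changes of 1.23 and 0.51. AT3G23080 was even between replicates, with 79.9 and 78.5 on the controls and 141 and 144 with dexamethasone. AT3G59780 had 160 on both dexamethasone arrays against 77.5 and 104. The remaining 4 were AT1G65070, AT2G35260, AT1G52710 and AT3G06470, with log2 changes between 0.50 and 0.83. Replicate 1 showed the larger change for 5 of the 12 genes, and the median change was 0.71 on replicate 1 and 0.82 on replicate 2.

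The 24 h arrays entered the choice of these genes only through the filter and the shared estimate of the spread. All 12 had a log2 change above 0 there, as did 52.5% of all probe sets, and for 10 of the 12 both dexamethasone arrays lay above both controls, against 18.0% of all probe sets. The 2 exceptions were AT3G23080 and AT1G65070, whose groups overlapped at 24 h with log2 changes of 0.04 and 0.03. The median change of the 12 was 0.77 at 4 h and 0.30 at 24 h. In the test of the difference between the times, 6 of the 12 had an unadjusted p below 0.05 (5.48% of all probe sets) and 0 passed after adjustment in limma, where the smallest adjusted p was 0.832. The genes were picked by their 4 h values, which favours larger values at that time.

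**Figure D3:**
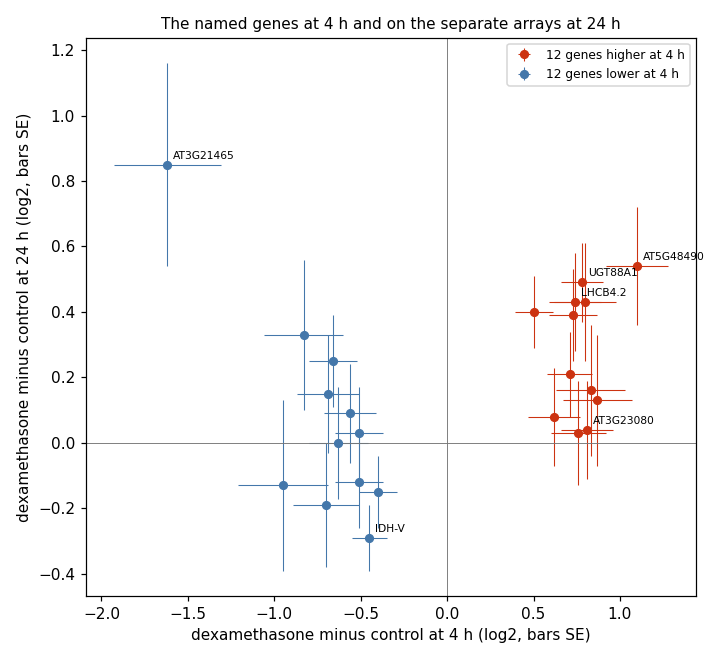
Log2 change with dexamethasone at 4 h (x axis) and at 24 h (y axis) for the named genes, with bars of 1 SE from limma. The 12 genes that lay higher at 4 h are all above 0 at 24 h, between 0.03 and 0.54, and the 12 that lay lower at 4 h lie on both sides of 0, between -0.29 and 0.85.

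The 12 genes with the smallest p among those lower on both dexamethasone arrays had limma adjusted p-values from 0.327 to 0.633, and none passed. IDH-V, isocitrate dehydrogenase V, is a subunit of an enzyme that works in the mitochondrial citric acid cycle. It read 1020 and 972 on the controls and 755 and 702 with dexamethasone (log2 change -0.45, SE 0.10, limma adjusted p = 0.504). It lay lower at 24 h as well, at 888 and 826 on the controls and 703 and 698 with dexamethasone. AT1G12000, at 392 and 372 against 308 and 269, was the other gene of the 12 whose groups stayed apart in the same direction at 24 h.

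AT3G21465 had the largest drop in signal of the 12, from 28.3 and 24.9 on the controls to 5.62 and 5.84 with dexamethasone (log2 change -1.62, SE 0.31, limma adjusted p = 0.327). At 24 h the order was turned: the controls read 12.2 and 5.14 and the dexamethasone arrays 19.6 and 17.0. Its difference between the times had an unadjusted limma p of 0.00014, which gave an adjusted p of 0.832. The dexamethasone signals at 4 h were below percentile 40 of their arrays. AT1G52050 went from 154 and 128 to 91.7 and 83.2 at 4 h, and at 24 h lay at 77.1 and 84.5 on the controls and 94.7 and 98.5 with dexamethasone. AT1G04040, the brightest of the 12, read 1285 and 1410 on the controls and 1039 and 852 with dexamethasone, with overlap at 24 h. The other 7 were AT5G48240, AT1G62050, AT1G56350, AT4G29360, AT3G15650, AT1G17620 and AT1G22160.

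The 12 genes that lay lower were spread over both sides of 0 on the 24 h arrays. Of the 12, 6 had a log2 change below 0 there (47.5% of all probe sets), 2 had both dexamethasone arrays below both controls (14.1%), and 5 had both above (18.0%). Their median was -0.64 at 4 h and 0.02 at 24 h. Replicate 2 had the larger change for 10 of these 12. The difference between the times had an unadjusted p below 0.05 for 8 of them (5.48% of all probe sets), and 0 passed after adjustment in limma. The 24 h controls include replicate 1, which shared high genes with dexamethasone replicate 2 at 4 h, as described below. The part of that array in the difference between the times was not tested.

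Gene groups were drawn up by symbol and are described by the counts of their members and their median, beside all probe sets, of which 47.8% had a log2 change above 0 and whose median was -0.01. Of all 14575 probe sets, 7511 lay above the control mean on dexamethasone replicate 1 and 6682 on replicate 2. No member of any group passed. The light-harvesting list held only CP29 genes and light-harvesting-like (LIL3) genes. All 5 genes tested had a log2 change above 0 on average and on each dexamethasone array. For 4 of the 5 both dexamethasone arrays lay above both controls (16.5% of all probe sets). The median was 0.18, with 0.20 on replicate 1 and 0.21 on replicate 2, and it was 0.27 without control replicate 2. Besides LHCB4.2, the CP29 genes LHCB4.1 and LHCB4.3 belong to the group. LHCB4.1, the brightest, read 2679 and 3043 on the controls and 3285 and 3193 with dexamethasone (log2 change 0.18). LHCB4.3 read 120 and 108 against 139 and 160 (log2 change 0.37). LIL3:1 and LIL3:2 encode light-harvesting-like proteins that act in chlorophyll synthesis. LIL3:1 lay at 799 and 830 on the controls and 903 and 942 with dexamethasone. LIL3:2 overlapped, with 712 and 771 against 752 and 744 (log2 change 0.01). At 24 h the median of the 5 genes was 0.14, and 3 of them had both dexamethasone arrays above both controls (18.0% of all probe sets).

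Genes of chlorophyll and tetrapyrrole synthesis, the pathway from glutamate to chlorophyll and haem, had a median of 0.13 over 8 genes, and of 0.07 without control replicate 2. Of these, 7 had a change above 0 (47.8% of all probe sets), and for 5 both dexamethasone arrays lay above both controls (16.5%). HEME1, a uroporphyrinogen decarboxylase of the shared part of the pathway, read 300 and 310 on the controls and 394 and 353 with dexamethasone (log2 change 0.28, unadjusted p = 0.032, limma adjusted p = 0.707). HEME2, of the same step, read 642 and 548 against 697 and 664 (log2 change 0.20). CHLM, the magnesium protoporphyrin methyltransferase, read 920 and 853 against 984 and 925 (log2 change 0.11). These shifts were small, from 0.11 to 0.28 on the log2 scale. PORB, a light-dependent protochlorophyllide reductase and the brightest of the 8, was the member below 0, with 1669 and 1767 on the controls and 1712 and 1352 with dexamethasone. At 24 h the median was -0.00, and 4 of the 8 were above 0.

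The nuclear-encoded photosystem subunits PSAE-1, PSAN, PSB27, PSBY and PSBW did not separate at 4 h. Their log2 changes ran from -0.10 to 0.11, and for 0 of the 5 were the groups apart. At 24 h all 5 had both dexamethasone arrays above both controls, against 18.0% of all probe sets, with a median of 0.30. PSAE-1, a stromal subunit of photosystem I, shows the pattern at 4 h, with 3209 and 3093 on the controls and 3317 and 3143 with dexamethasone. Of the carbon fixation genes, RCA (Rubisco activase) overlapped, at 4485 and 5575 on the controls and 4592 and 5248 with dexamethasone. PRK, phosphoribulokinase, read 1984 and 2520 against 2522 and 2593, so the lowest dexamethasone value and the highest control value were nearly the same. SBPASE read 1410 and 1548 against 1720 and 1573 (log2 change 0.15). For 2 of the 3 carbon fixation genes both dexamethasone arrays lay above both controls, against 16.5% of all probe sets.

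Genes on the chloroplast genome lay mostly the other way at 4 h. Of 67 tested, 45 had a log2 change below 0 (52.2% of all probe sets), and for 25 both dexamethasone arrays lay below both controls (18.4%). For 9 of the 67 both lay above, a share no larger than the 16.5% of all probe sets. The median was -0.11, with -0.17 on replicate 1 and -0.06 on replicate 2, and -0.07 without control replicate 2. The changes were small: 2 of the 67, both lower, had an unadjusted p below 0.05, a share near the 3.27% of all probe sets, and 0 passed in limma. The summed signal of the 67 was 101939 and 109076 on the controls and 92173 and 103534 with dexamethasone, so the groups overlapped in that sum. Transcripts of the plastid share operons and 1 genome, so these genes are not independent of each other. At 24 h 63 of the 67 had a change above 0 and for 36 both dexamethasone arrays lay above both controls (18.0%), with a median of 0.19. The difference between the times had an unadjusted p below 0.05 for 7 of the 67 (5.48% of all probe sets) and passed for 0 in limma.

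The plastid ATP synthase, which makes ATP from the proton gradient across the thylakoid, had the lowest median of the plastid complexes, at -0.23 over 6 genes. For 4 of the 6 both dexamethasone arrays lay below both controls, against 18.4% of all probe sets. The catalytic subunit gene atpB read 6822 and 8843 on the controls and 5599 and 6521 with dexamethasone (log2 change -0.36, limma adjusted p = 0.707). The neighbouring gene atpE read 6456 and 7411 against 5604 and 6047 (log2 change -0.25). The membrane ring gene atpH read 1361 and 1034 against 971 and 917. On replicate 1 the median was -0.30 and none of the 6 was above 0, and on replicate 2 it was -0.14 with 1 above 0. The members of photosystem II, 15 genes, had a median of -0.11, and those of photosystem I, 7 genes, of -0.12. The plastid ribosomal proteins, 14 genes, had a median of -0.13, and for 7 of them both dexamethasone arrays lay below both controls (18.4% of all). The cytochrome b6f complex (median 0.00 over 6 genes), the NDH complex (0.02 over 9 genes) and the plastid RNA polymerase (-0.02 over 4 genes) had medians near that of all probe sets.

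Some plastid genes lay higher, though this was no more common among them than among all probe sets. rbcL, which encodes the large subunit of Rubisco, read 399 and 418 on the controls and 505 and 478 with dexamethasone (log2 change 0.26), and its 24 h value was 0.51. rpoA, a subunit of the plastid RNA polymerase, read 1698 and 1513 against 1847 and 2335 (log2 change 0.37). ndhE, of the NDH complex, read 349 and 292 against 410 and 389 (log2 change 0.32). In each of these the dexamethasone arrays lay above both controls, and none passed.

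**Figure D4:**
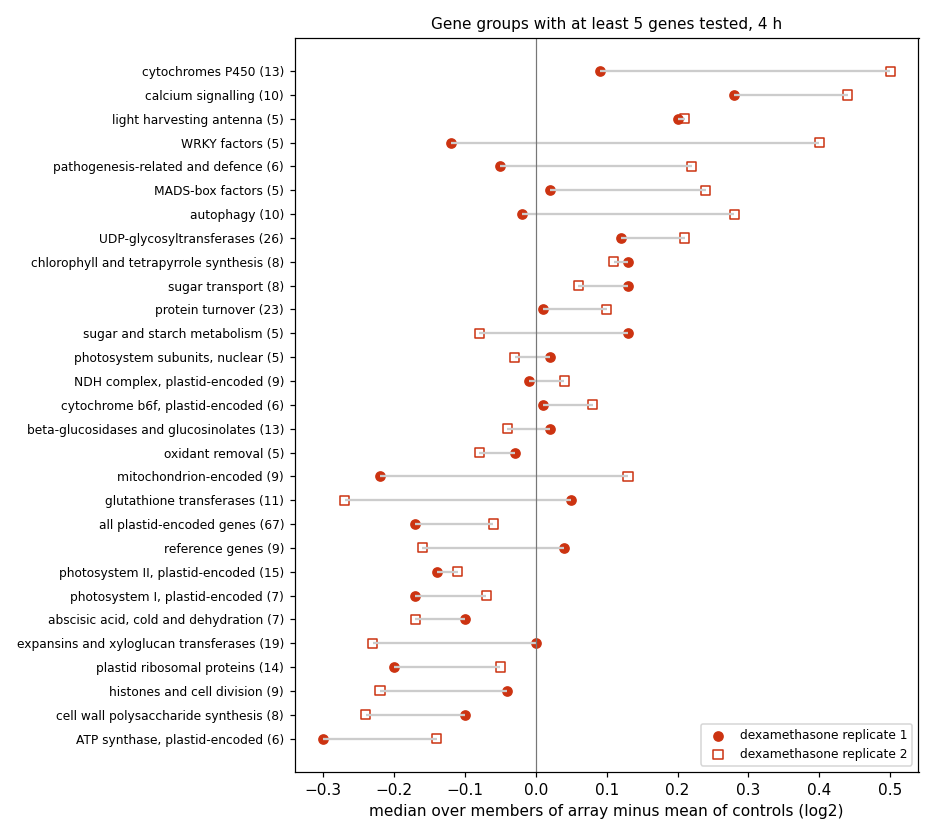
Median over the members of each gene group with at least 5 genes tested (number in brackets) of the log2 signal of dexamethasone replicate 1 (filled circles) and replicate 2 (open squares) minus the control mean at 4 h. The light-harvesting list of CP29 and LIL3 genes lies at 0.20 and 0.21. The plastid ATP synthase lies at -0.30 and -0.14, and the cytochromes P450 at 0.09 and 0.50, where the replicates part.

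Several groups had a median away from 0 mainly on dexamethasone replicate 2. Autophagy genes, which carry out the recycling of cell contents, had a median of -0.02 on replicate 1 with 4 of 10 above 0, and of 0.28 on replicate 2 with all 10 above 0. Of all 14575 probe sets, 7511 were above 0 on replicate 1 and 6682 on replicate 2. ATG8E, a ubiquitin-like protein of the autophagosome membrane, read 81.5 and 118 on the controls and 135 and 228 with dexamethasone. Its log2 change was 0.81, with 0.44 on replicate 1 and 1.18 on replicate 2. Cytochromes P450, mostly of the CYP71B subfamily, had medians of 0.09 on replicate 1 and 0.50 on replicate 2 over 13 genes. CYP71B23 read 52.6 and 44.2 on the controls and 35.3 and 217 with dexamethasone. Of the 13, 11 had a change above 0 (47.8% of all probe sets), but the largest change in size went the other way on both arrays. That was CYP718, at 8.43 and 19.8 against 3.25 and 1.27 (log2 change -1.43), with mean signals below percentile 40 in both groups. WRKY transcription factors, many of which act in stress responses, had medians of -0.12 and 0.40 over 5 genes. WRKY53 read 12.2 and 12.3 on the controls and 7.32 and 30.4 with dexamethasone, so the dexamethasone arrays lay on opposite sides of the controls. Its mean signal was below percentile 40 of the arrays in both groups. For 2 of the 5, WRKY22 and WRKY20, both dexamethasone arrays lay above both controls (16.5% of all probe sets). WRKY22, the largest change of the list, read 13.0 and 11.7 against 19.2 and 24.2, with controls below percentile 40.

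In the other direction, expansins and xyloglucan transferases, which loosen and remodel the cell wall, had a median of -0.00 on replicate 1 and -0.23 on replicate 2 over 19 genes. On replicate 2, 2 of the 19 were above 0, against 6682 of all 14575 probe sets. EXPB3, a beta-expansin, read 147 and 137 on the controls and 130 and 54.8 with dexamethasone. Its log2 change was -0.72, with -0.12 on replicate 1 and -1.31 on replicate 2. At 24 h 18 of these 19 genes had a change above 0 (52.5% of all probe sets). That comparison includes control replicate 1 at 24 h, which shared high genes with dexamethasone replicate 2 at 4 h, as described below. How far this shaped the change between the times was not tested. Genes of cell wall polysaccharide synthesis were below 0 in 8 of 8 (52.2% of all probe sets), with a median of -0.10 on replicate 1 and -0.24 on replicate 2. CSLD2, a cellulose synthase-like protein, read 99.4 and 97.9 against 82.0 and 73.4. Histone and cell division genes were below 0 in 9 of 9 (52.2% of all probe sets), with medians of -0.04 and -0.22. HTB1, a histone H2B, read 404 and 336 against 316 and 283.

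Calcium signalling genes had medians of 0.28 on replicate 1 and 0.44 on replicate 2 over 10 genes, 9 of which had a change above 0 (47.8% of all probe sets). For 3 of the 10 both dexamethasone arrays lay above both controls (16.5% of all). The largest change of the list was that of GLR2.7, whose groups overlapped and whose mean signal was below percentile 40 in both. CML30, a calmodulin-like protein, read 27.6 and 27.0 on the controls and 43.2 and 50.7 with dexamethasone (log2 change 0.69, SE 0.18, limma adjusted p = 0.614). At 24 h CML30 lay lower with dexamethasone, at -0.25. It read 50.9 and 46.3 on control replicates 1 and 2 at 24 h, and 38.0 and 42.5 with dexamethasone. UDP-glycosyltransferases had a median of 0.13 over 26 genes, and UGT85A2 read 112 and 98.5 on the controls and 122 and 229 with dexamethasone. UGT72E1 read 178 and 198 against 183 and 563, with log2 changes of -0.03 on replicate 1 and 1.56 on replicate 2. SWEET2, a sugar transporter, read 32.0 and 43.4 against 54.7 and 69.7 (log2 change 0.67). Among light signalling and clock genes, GI (GIGANTEA) read 158 and 147 on the controls and 136 and 95.8 with dexamethasone. HYH, a bZIP factor of light signalling, read 20.7 and 24.5 against 29.4 and 36.5, and COR27 read 109 and 112 against 120 and 136. Of 9 actin, tubulin and other reference genes, 7 had a change below 0 (52.2% of all probe sets), with a median of -0.11, 0.04 on replicate 1 and -0.16 on replicate 2.

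The genes that stood highest on dexamethasone replicate 2 alone are described without a test, because they were chosen by that gap. AT4G12500 read 92.8 and 89.9 on the controls, 71.6 on dexamethasone replicate 1 and 2581 on replicate 2. Its neighbour in locus number, AT4G12490, read 448, 408, 368 and 5969 in the same order. AT5G64120 (PRX71, peroxidase 71, a class III peroxidase, enzymes secreted to the cell wall) read 381, 417, 339 and 4384. In all 3 replicate 1 lay below both controls while replicate 2 was more than 10 times above them. cwINV6, a fructan exohydrolase, read 29.5 and 30.3 on the controls, 23.0 on replicate 1 and 166 on replicate 2. AT2G43620 read 290 and 183, then 156 and 1287. The remaining 3 of the 8 were AT5G64110, AT5G39580 and AT3G18250. In groups fixed by symbol, the chitinase CHI, a family of enzymes that degrade chitin, read 38.6, 39.1, 31.7 and 96.6, and the stress zinc finger factor STZ read 29.1, 34.8, 33.4 and 90.8. CHI belongs to the list of pathogenesis-related and defence genes, where 3 of 6 lay above the control mean on each dexamethasone array. Over all 14575 probe sets, 7511 did so on replicate 1 and 6682 on replicate 2. PDF1.2, of the same list, read 482, 332, 375 and 361.

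The 8 genes that stood highest on dexamethasone replicate 2 were high on 1 array at 24 h, control replicate 1, which received no dexamethasone. On that array AT4G12500 read 2011, AT4G12490 read 3580, AT5G64120 read 3088 and AT2G43620 read 1308. The other 3 arrays at 24 h read between 44.9 and 60.7 for AT4G12500. All 8 genes lay above both 4 h controls on control replicate 1 at 24 h, with a median log2 difference of 2.84, whereas 1 of the 8 did so on each of control replicate 2 and dexamethasone replicate 1 at 24 h, and 4 of the 8 on dexamethasone replicate 2, with a median of 0.14. Of all 114 probe sets that stood more than 1 log2 unit high on dexamethasone replicate 2 at 4 h, 108 (94.7%) were highest on control replicate 1 among the 24 h arrays, as were 27.0% of all probe sets, and 63 (55.3%) by more than 1 log2 unit, as were 1.00% of all. What sets these arrays apart was not tested.

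**Figure D5:**
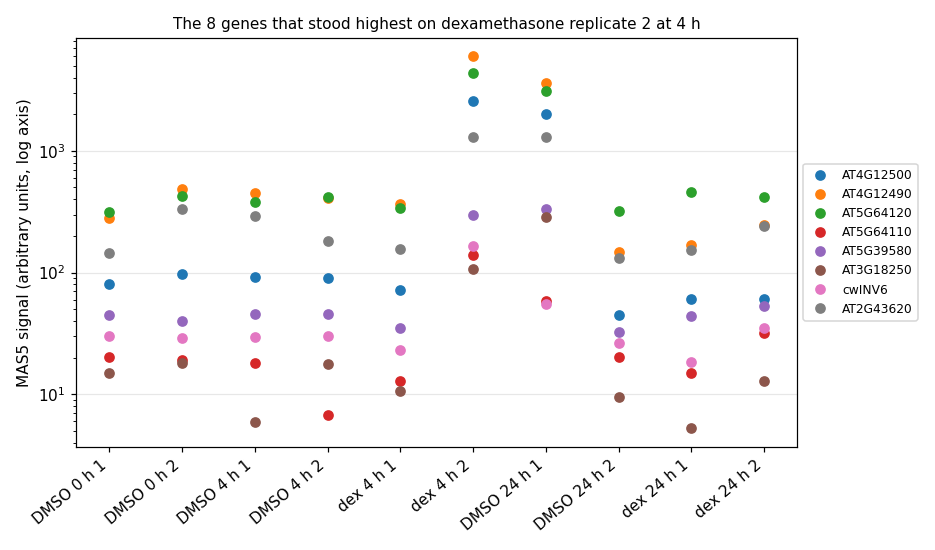
MAS5 signal (log axis) of the 8 genes that stood highest on dexamethasone replicate 2 at 4 h, 1 column per array for all 10 arrays. The high values are on dexamethasone replicate 2 at 4 h and on control replicate 1 at 24 h, where AT4G12490 read 5969 and 3580.

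Genes that stood lowest on replicate 2 included GH9B13, a glycosyl hydrolase of family 9, at 136 and 124 on the controls, 109 on replicate 1 and 40.7 on replicate 2, and AT1G80130, at 251 and 155, then 122 and 31.0. Of the 46 probe sets more than 1 log2 unit low there, 32 (69.6%) were lowest on control replicate 1 among the 24 h arrays, as were 31.5% of all probe sets, but only 2 (4.35%) by more than 1 log2 unit, as were 0.213% of all. With dexamethasone replicate 1 left out, so that replicate 2 alone stood for the treatment and was taken to vary like the other groups, 54 probe sets rose and 26 fell. On the array left out, the median log2 difference from the control mean was 0.18 for those that rose and -0.13 for those that fell. The median over all probe sets on that array was 0.01. Both dexamethasone arrays were compared with the same 2 controls, so replicate 1 is not an independent check of these calls. With replicate 2 left out, 2 rose and 0 fell, with 514 at an unadjusted p below 0.05 in either direction.

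Replicate 1 alone had few genes of its own. The 2 highest by their gap were AT3G05640 and AT5G35970. AT3G05640 read 15.8 and 18.0 on the controls, 68.9 on replicate 1 and 29.4 on replicate 2, and at 24 h it read 16.3 and 18.3 on the controls and 68.8 and 39.1 with dexamethasone. In that gene replicate 2 also lay above both controls, and at 24 h both dexamethasone arrays did. AT5G35970 read 35.8 and 44.8, then 97.6 and 47.0. AT3G21670 (NPF6.4, of the family of nitrate and peptide transporters) read 55.5 and 57.3, then 113 and 62.0. The lowest on replicate 1 by gap was AT5G14330, with 37.9 and 26.8 on the controls, 8.45 on replicate 1 and 35.3 on replicate 2.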

How the data were processed

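RNA of 10 seedling samples was measured on ATH1 arrays, 1 array each, in 5 groups of 2. The deposited table holds signal intensities on a linear scale for 22810 probe sets. Per the submitters' processing notes MAS5 and GCOS were used, with no versions or detection calls. Each array's trimmed mean was 100.0, so the signals had been scaled to a common mean, which hides any change in total messenger RNA, and precision is limited by how few arrays there are. From the deposited intensities, log2(signal + 4.35) was computed, 4.35 being percentile 20 of all values. The 64 control probe sets were left out, as were those that exceeded percentile 40 of an array on fewer than 2 arrays. limma 3.58.1 in R 4.3.3 (lmFit, eBayes with a trend) fitted 1 mean per group to all 10 arrays, with 5 residual degrees of freedom. P-values were two-sided and Benjamini-Hochberg adjusted over 14575 probe sets. The fit was tested on simulated data. Figures used Python 3.11.15 and matplotlib 3.10.9.

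Names came from the platform annotation, updated through RefSeq TAIR10.1 for names only: 13513 probe sets had 1 gene, 503 several and 8730 none, 13436 of the first were found in RefSeq and 77 kept the platform name. For GLK1 and GLK2 the annotation lists 0 probe sets, so the knock-outs were not checked. Probe sets for them could still be among the 8730 without a gene. Named genes were the probe set that passed, the 12 with the smallest p in each direction among those whose groups did not overlap, leaving out any dim in both groups, up to 4 members of each list (the 2 brightest and the 2 with the largest change), and the 8 with the largest gap on each dexamethasone array in each direction. Members named outside this rule (other list members, 263345_s_at and 266273_at) were chosen after their values were seen. The members, the 65 gene lists and the named arrays were chosen with earlier results of these data known, and the list of all plastid-encoded genes and some corrections to the lists by name were added after the annotation had been seen. Of the lists, 39 had at least 3 genes tested. Lists got no test. The alternatives were another constant, no filter, quantile normalization, no trend, the 4 h arrays alone, a replicate block, leaving out each array, and a margin.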

Additional observations from a re-analysis of the deposited data

How the results depend on the processing

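The call on 249035_at was kept under every alternative run, with a log2 change between 3.94 and 5.13 and limma adjusted p-values between 9.3e-06 and 0.0017. The counts of calls depended on the 2 dexamethasone arrays. Leaving out 1 array at a time, the number of probe sets that rose ran from 1 to 54, the number that fell from 0 to 26, and the number at an unadjusted p below 0.05 from 514 to 2038. The highest of each came without dexamethasone replicate 1. With a margin of 0.5 log2 units, 52 probe sets had both dexamethasone arrays above both controls and 28 had both below. Without the filter on low signals the counts were 3396 and 4428. Leaving out 1 array at a time moved the median of the light-harvesting list between 0.15 and 0.27. Some named genes were not refitted: those chosen by their gap on 1 array, and list members such as CYP71B23, UGT85A2, LIL3:1 and LIL3:2. Of the named genes that were refitted, 7 changed sign when an array was left out: PSAN ran from -0.29 to 0.09, RCA from -0.18 to 0.13, PYK10 from -0.18 to 0.08, EXPA7 from -0.04 to 0.25, CHI from -0.26 to 1.23, WRKY53 from -0.51 to 1.07 and UGT72E1 from -0.03 to 1.56. Under quantile normalization RCA was at 0.07 and PYK10 at 0.02. The causes of these shifts were not tested.

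The groups share replicate numbers in the labels. The correlation of same-numbered deviations was 0.11 between the 4 h groups and ran from -0.42 to 0.18 over all pairs of groups. With 2 arrays a group, such values cannot settle whether equal numbers share a culture or handling. With a replicate block 1 probe set rose, 0 fell and 1044 had an unadjusted p below 0.05, against 1022 without it. The planned search for motifs in promoters was not run, because no promoter sequences were used here. With 2 arrays a group, the precision of each value is limited, and weak signals near the added constant are the least certain.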
